A study of Mus musculus with 16 samples.

Results

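The genes described here belong by symbol to families that remodel nucleosomes or write and erase marks on histones, though some members act on other targets. All were followed in mouse bone after ovariectomy. They were chosen by symbol, as those beginning with Kmt, Kdm, Kat, Hdac, Sirt, Chd or Arid and a number, with Smarca to Smarce, or with Setd and a number or the letter b, at a mean count above 0. Of 25239 genes in the authors' deposited RNA table, 96 matched, and 95 had a mean above 0. Arid3c, at a mean of 0, was left out, and the lowest member, the Y-linked demethylase gene Kdm5d, had a mean of 0.451 in the authors' deposited table. Of the 95 members, 94 fell into 8 groups by role, and the pseudogene Smarca5-ps, which can share reads with Smarca5, belonged to none.

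The series profiled RNA in bone, and in it m6A (N6-methyladenosine, adenosine carrying an added methyl group). The bone was from wild type mice, after ovariectomy (titled OVX, 4 input and 4 IP libraries) or after a sham operation (titled NC, 4 and 4). IP libraries were made from RNA captured by an m6A antibody, and input libraries from the RNA before capture. The labels give no age or strain and do not say whether each library came from its own animal. The spread behind the p-values may thus be technical. The treatment field reads ovariectomy for all 8 IP libraries, including the 4 titled NC, and groups were taken from the titles. Which arm was divided by which is recorded in neither table, and the 2 tables may differ in this. Signs are therefore given as deposited, and no value is read as up or down with ovariectomy. No value of a single library was at hand, so each result is the authors' fold change with its standard error (SE). The labelled tissue had its markers: of 10 osteoblast and osteocyte genes all were detected, with means from 482 (Sp7) to 99868 (Col1a1) in the authors' deposited table. Their signs were mixed, with 4 positive, 6 negative and a median of -0.09, and 2 passed, both positive, in the authors' deposited table. Markers of other cells differed between the arms in the authors' deposited table, where 11 of 12 B cell genes passed with a positive sign (median 1.10) and all 10 skeletal muscle genes were negative (median -1.42, 3 passed). All 10 proliferation genes were positive (median 0.28, 2 passed) and all 8 endothelial and stromal genes negative (median -0.33, 3 passed) in the authors' deposited table. Among the remaining markers the authors' deposited table gave a pass to 4 of 8 erythroid genes and 1 of 7 T and NK cell genes, with a positive sign. It gave a pass to 1 of 6 osteoclast genes, with a negative sign, and to none of 8 neutrophil genes. All 6 osteoclast genes were negative (median -0.52), as were 6 of the neutrophil genes (median -0.25) and 4 of the T and NK cell genes (median -0.17). Of the erythroid genes 7 were positive (median 0.42), in the authors' deposited table. In bulk bone, fewer cells of a type and less RNA per cell cannot be told apart.

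DNA in the nucleus is wound on histones, and 2 kinds of protein control access to it. Remodellers use ATP to slide or evict nucleosomes, among them the SWI/SNF, ISWI and CHD families. Histone modifiers add or remove methyl and acetyl groups on lysines, which mark active or silent chromatin and guide how blood and bone cells differentiate. The marks also reach RNA methylation: Setd2 lays down the H3K36 trimethyl mark that the m6A writer subunit Mettl14 can bind.

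Most members missed the threshold in RNA, and most of those that passed had a positive sign, led by Smarca4. Of 93 members with an adjusted p in the authors' deposited table, 14 passed the threshold of 0.05 (15.1%), against 12.2% of all 15396 tested genes. Positive calls made up 12 of the 14, among tested genes of which 6.07% had a positive and 6.11% a negative call in the authors' deposited table. The 76 members with a mean of at least 1000 counts had 12 calls (15.8%), 10 positive and 2 negative, where 15.5% of all genes that abundant passed, 9.01% positive and 6.49% negative, in the authors' deposited table. The share of members called was thus near that of all genes of high counts. The median log2 fold change over tested members was 0.10, against -0.02 over all tested genes, in the authors' deposited table. Of the members 58 were positive and 35 negative (62.4% positive), against 46.7% positive of all tested genes. At a mean of at least 1000 the median was 0.10 over members and 0.02 over all genes. There 47 of 76 members and 3840 of 7184 genes were positive, in the authors' deposited table. Members were read deeply, with a median mean count of 3791 against 853 for all tested genes, and a median SE of 0.11 against 0.17, in the authors' deposited table.

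**Figure D1:**
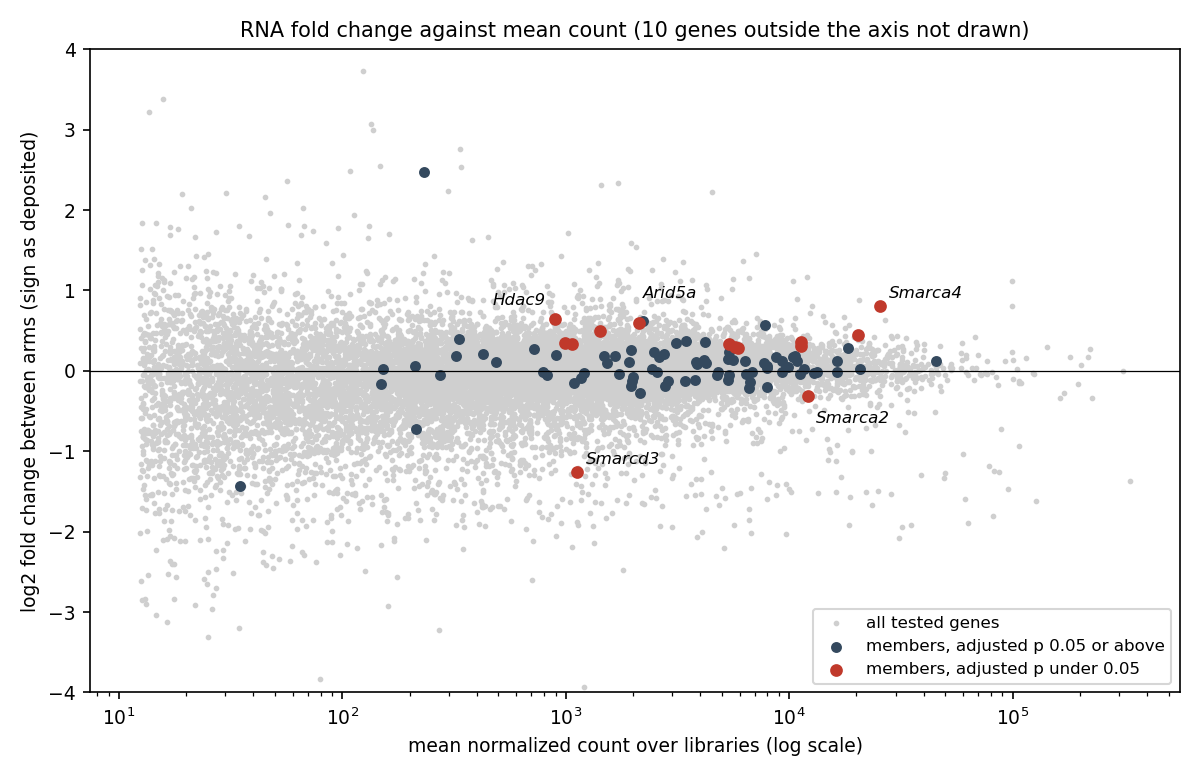
RNA log2 fold change between the arms (vertical axis, sign as deposited) against the mean normalized count over libraries (horizontal log axis), 1 point a gene, for genes with an adjusted p. Of the members, Smarca4 at 0.80 is the highest called one and Smarcd3 at -1.26 the lowest, and 10 genes outside the axis, none of them a member, are not drawn.

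Within SWI/SNF, the 2 alternative ATPases of the complex had opposite signs. Smarca4 (BRG1) had a mean of 25614 counts and a log2 fold change of 0.80 ± 0.12 (SE) in the authors' deposited table (adjusted p = 1.8e-09), a ratio of 1.75 with a 95% interval of 1.49 to 2.04. It ranked 26 of all genes by p in the authors' deposited table. Smarca2 (BRM), which takes the place of Smarca4 in other copies of the complex, had a mean of 12142 and a fold change of -0.31 ± 0.06 (adjusted p = 2.6e-05) in the authors' deposited table. Its ratio was 0.808, with a 95% interval of 0.745 to 0.876. All RNA fold changes given here are on the log2 scale, with ± for the SE. The intervals of these ATPases lie on opposite sides of no change.

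Other subunits followed no single sign. Arid1b, a DNA-binding subunit of the BAF form, stood at 0.34 ± 0.08 (adjusted p = 0.0013) in the authors' deposited table. Its paralog Arid1a had a larger value, 0.57, but an SE of 0.25, and missed the threshold in the authors' deposited table (adjusted p = 0.119). Arid2, the corresponding subunit of the PBAF form, had 0.15 ± 0.06 (adjusted p = 0.078) in the authors' deposited table. Smarcd3 (BAF60C), the variant used in heart and skeletal muscle, stood at -1.26 ± 0.38 (adjusted p = 0.013) in the authors' deposited table. The alternative subunits Smarcd1 and Smarcd2 had 0.19 ± 0.11 and 0.36 ± 0.14 in the authors' deposited table and did not pass. The skeletal muscle markers were negative beside Smarcd3, all 10 of them, between -1.94 and -1.01 in the authors' deposited table, and took 1.92% of all mean counts. Their part in the Smarcd3 value was not tested. Of the scaffold subunits, Smarcc2 had a mean of 20688 and a fold change of 0.02 ± 0.06, and Smarcc1 had 0.17 ± 0.10, in the authors' deposited table. Over the 12 subunits, 2 passed with a positive and 2 with a negative sign, at a median of 0.18, in the authors' deposited table.

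The sequences before the starts of Smarca4 and Smarca2 are shown because these genes had the smallest p of either sign in the complex, with those of Kdm1b and Kdm5c, the called demethylases. They come from RefSeq on GRCm38.p6, plus strand, and run from 250 bases before a start site to the last base before the outermost annotated start of the gene, at chr9:21615919-21616105, chr19:26604910-26605072, chr13:47043249-47043372 and chrX:152232977-152233197. Capitals mark GC boxes, the letters GGGCGG or CCGCCC.
Smarca4: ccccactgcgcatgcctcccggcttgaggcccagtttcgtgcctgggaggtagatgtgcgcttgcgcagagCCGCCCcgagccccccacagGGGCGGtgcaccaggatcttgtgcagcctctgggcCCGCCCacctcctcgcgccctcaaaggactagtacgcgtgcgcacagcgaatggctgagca
Smarca2: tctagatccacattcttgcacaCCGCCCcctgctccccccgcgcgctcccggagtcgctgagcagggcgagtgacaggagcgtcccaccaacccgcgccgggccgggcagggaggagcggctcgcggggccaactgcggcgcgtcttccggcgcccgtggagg
Kdm1b: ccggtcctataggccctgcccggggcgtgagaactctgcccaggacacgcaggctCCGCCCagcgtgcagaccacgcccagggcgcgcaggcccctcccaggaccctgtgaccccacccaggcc
Kdm5c: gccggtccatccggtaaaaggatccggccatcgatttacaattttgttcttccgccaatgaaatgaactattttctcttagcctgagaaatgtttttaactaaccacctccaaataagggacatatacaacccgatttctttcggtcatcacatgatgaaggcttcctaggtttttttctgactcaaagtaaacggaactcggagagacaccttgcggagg
The stretch of Smarca4 holds 3 GC boxes, those of Smarca2 and Kdm1b hold 1 each, and that of Kdm5c holds none. Base composition differs, at 68.4% G and C for Smarca4, 74.2% for Smarca2, 74.2% for Kdm1b and 43.0% for Kdm5c.
In the 250 bases before each start, 63 of 100 windows from the 74 members with one (63.0%) held a GC box on either strand, against 32.7% of all 32851 windows. The member windows were richer in G and C, at a median of 61.4% against 52.4%. The palindromic estrogen response element GGTCANNNTGACC was in 0 member windows and in 21 of all (0.0639%), and its single arm GGTCA or TGACC, part of the same element, in 29 (29.0%) against 35.2%. The TATA box letters TATAAA or TTTATA were in 5 member windows (5%) against 12.4% of all, and CCAAT or ATTGG in 38 (38.0%) against 33.8%. Called members had 14 windows, from 12 of the 14 genes, and 11 of these windows (78.6%) held a GC box. CCAAT or ATTGG was in 5 of the 14 windows (35.7%), and GGTCA or TGACC also in 5 (35.7%). The TATA box letters were in 1 (7.14%) and the palindromic element in 0.

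**Figure D2:**
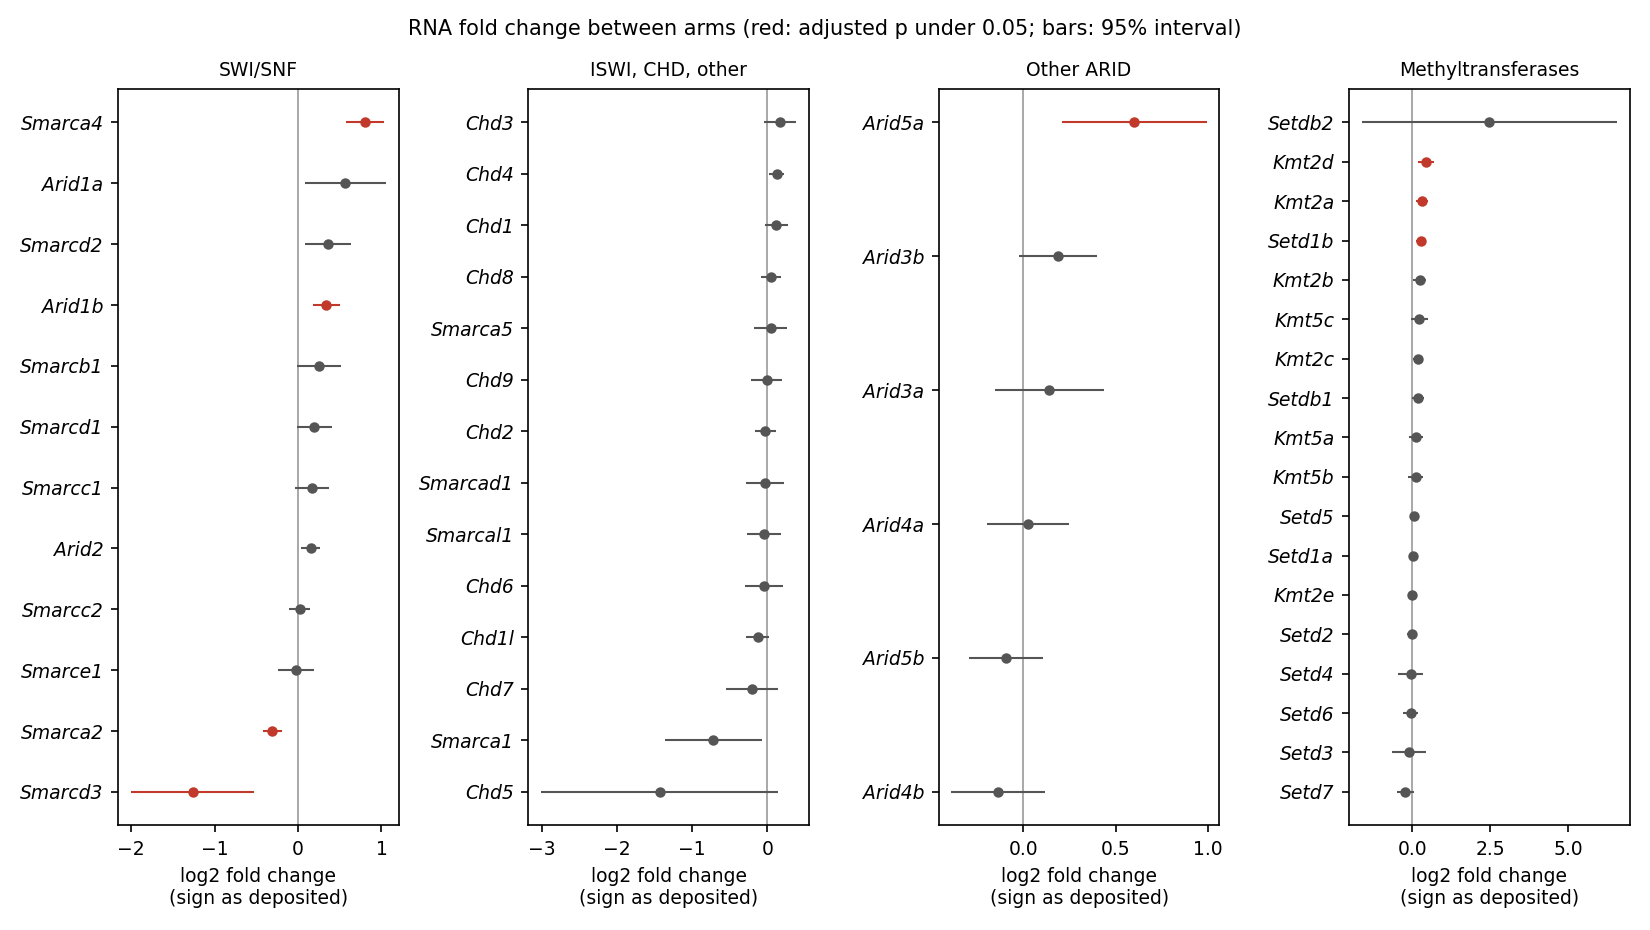
RNA log2 fold change (horizontal axis, sign as deposited) of tested remodellers, other ARID proteins and methyltransferases, with 95% intervals from the deposited SE. Red points had an adjusted p under 0.05, with Smarca4 at 0.80 and Smarca2 at -0.31 on opposite sides of 0, and the interval of Setdb2 runs from -1.62 to 6.58.

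No member of the ISWI, CHD and related remodellers passed. Chd4, the ATPase of the NuRD repressor complex, had the highest mean of all members, 45605, and a fold change of 0.12 ± 0.05 (adjusted p = 0.080) in the authors' deposited table. Chd2 had -0.03 ± 0.07 at a mean of 12980 in the authors' deposited table, an interval of -0.16 to 0.11. Smarca1 (SNF2L), an ISWI ATPase, stood at -0.72 ± 0.33 (adjusted p = 0.139) at a mean of 213 in the authors' deposited table. Its paralog Smarca5 (SNF2H) had 0.04 ± 0.11, and the pseudogene Smarca5-ps 0.06 ± 0.17, in the authors' deposited table. Over the 14 genes the median was -0.03, with 2 at an unadjusted p under 0.05, in the authors' deposited table.

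Of the other ARID proteins, Arid5a, which binds and stabilises messenger RNAs of inflammation, stood at 0.60 ± 0.20 (adjusted p = 0.029) in the authors' deposited table. Arid3b, a DNA-binding protein, followed with 0.19 ± 0.11 (adjusted p = 0.258) in the authors' deposited table. The members with the highest means were Arid4a, at 0.02 ± 0.11, and Arid4b, at -0.14 ± 0.13, subunits of the Sin3 repressor complex, in the authors' deposited table.

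Among methyltransferases, the 6 of the COMPASS family (Kmt2a to Kmt2d, Setd1a and Setd1b) act on H3K4, a lysine marked at active promoters and enhancers. All 6 had positive values in the authors' deposited table, and 3 passed. Values were positive for 46.7% of all tested genes, and for 3840 of the 7184 with a mean of at least 1000. Of all genes with a mean of at least 1000, 9.01% passed with a positive sign. Kmt2b and Setd1a were chosen after their values were seen. Kmt2d, which marks enhancers, had a mean of 20276 and a fold change of 0.44 ± 0.14 (adjusted p = 0.016) in the authors' deposited table. Kmt2a, the gene broken in mixed lineage leukemia in humans, had 0.32 ± 0.10 (adjusted p = 0.021) in the authors' deposited table. Setd1b, which lays down the trimethyl form, had 0.29 ± 0.09 (adjusted p = 0.012) in the authors' deposited table. Their paralogs Kmt2b and Kmt2c had 0.24 ± 0.10 and 0.19 ± 0.08 in the authors' deposited table and missed the threshold (adjusted p = 0.103 and 0.123). Setd1a stood at 0.03 ± 0.07, with an interval of -0.11 to 0.17, in the authors' deposited table.

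No other methyltransferase passed. Setd2 had -0.01 ± 0.07 at a mean of 13325, an interval of -0.15 to 0.12, in the authors' deposited table. Kmt5a, which adds the first methyl group to H4K20, had 0.12 ± 0.12 at a mean of 16334 in the authors' deposited table. Setd7, which adds a methyl group to histone and other proteins, had -0.22 ± 0.14 in the authors' deposited table. Setdb2 had the largest value of any tested member, 2.48, with an SE of 2.09 and an adjusted p of 0.486 in the authors' deposited table. Its SE was 9.44 times the median of 0.22 over the 866 genes with a mean within 20% of its own 231 counts, computed from the authors' deposited table. Of 18 methyltransferases, 3 passed (16.7%), all positive, at a median of 0.12, in the authors' deposited table. This share was near the 15.5% of all genes with a mean of at least 1000.

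Of the demethylases, 2 of 16 tested passed (12.5%, near the 12.2% of all tested genes), both positive, in the authors' deposited table. Both, Kdm1b and Kdm5c, remove methyl groups from H3K4. Kdm1b (LSD2), a flavin-dependent enzyme, had 0.50 ± 0.10 (adjusted p = 2.5e-05) in the authors' deposited table, a ratio of 1.42 with an interval of 1.24 to 1.61. Its paralog Kdm1a (LSD1), which is needed for blood cell maturation, had 0.02 ± 0.08, an interval of -0.13 to 0.17, in the authors' deposited table. Kdm5c, an X-linked enzyme, had 0.36 ± 0.08 (adjusted p = 3.5e-04) at a mean of 11330 in the authors' deposited table. The related Kdm5a and Kdm5b had -0.06 ± 0.09 and -0.01 ± 0.11 in the authors' deposited table. Kdm7a, with the next highest mean after Kdm5c, had -0.04 ± 0.11, and Kdm3b, close below it at 10865 counts, had 0.12 ± 0.06 (adjusted p = 0.166), in the authors' deposited table. The Y-linked Uty, from the list of other histone enzymes, was at 0 and Kdm5d near it, and Kdm4d had a mean of 7.62 and no adjusted p in the authors' deposited table.

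Of 8 acetyltransferases, Kat8 (MOF), which acetylates H4K16, passed with 0.35 ± 0.11 (adjusted p = 0.023) in the authors' deposited table. Kat2b (PCAF) came next by p, with -0.19 ± 0.11 (adjusted p = 0.253) in the authors' deposited table. Kat6a (MOZ), needed for blood stem cells, had the highest mean, 18357, and 0.29 ± 0.33 in the authors' deposited table. Its SE was 2.99 times the median over genes of like means, computed from the authors' deposited table. Kat7 (HBO1), the acetyltransferase with the next highest mean, had 0.10 ± 0.10 in the authors' deposited table.

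Of 11 histone deacetylases, 3 were called (27.3%), each with a positive sign. The share called was 12.2% over all tested genes and 15.5% over genes with a mean of at least 1000. Whether these shares differ beyond chance was not tested, and 11 genes are few. Class IIa enzymes shuttle between nucleus and cytoplasm and bind MEF2 transcription factors. Of these, Hdac9 had 0.64 ± 0.22 (adjusted p = 0.035) and Hdac5 had 0.29 ± 0.11 (adjusted p = 0.045) in the authors' deposited table. Hdac7, of the same class, had 0.62 ± 0.23 and missed the threshold (adjusted p = 0.060), and Hdac4 was negative, at -0.27 ± 0.16 (adjusted p = 0.266), in the authors' deposited table. Hdac10, of class IIb, a polyamine deacetylase, had 0.33 ± 0.09 (adjusted p = 0.0035) in the authors' deposited table. No class I enzyme passed, and the abundant Hdac1 and Hdac2 had -0.02 ± 0.12 and -0.04 ± 0.12 in the authors' deposited table, with intervals of -0.25 to 0.21 and -0.28 to 0.19. The difference between classes was not tested.

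No sirtuin, the NAD-dependent deacylases, passed. Sirt7 and Sirt6, which act in the nucleus, had 0.37 ± 0.17 and 0.40 ± 0.18 (adjusted p = 0.128 and 0.141) in the authors' deposited table. Sirt1, a regulator of stress responses, had -0.16 ± 0.24, and the cytoplasmic Sirt2 had -0.08 ± 0.09, in the authors' deposited table.

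**Figure D3:**
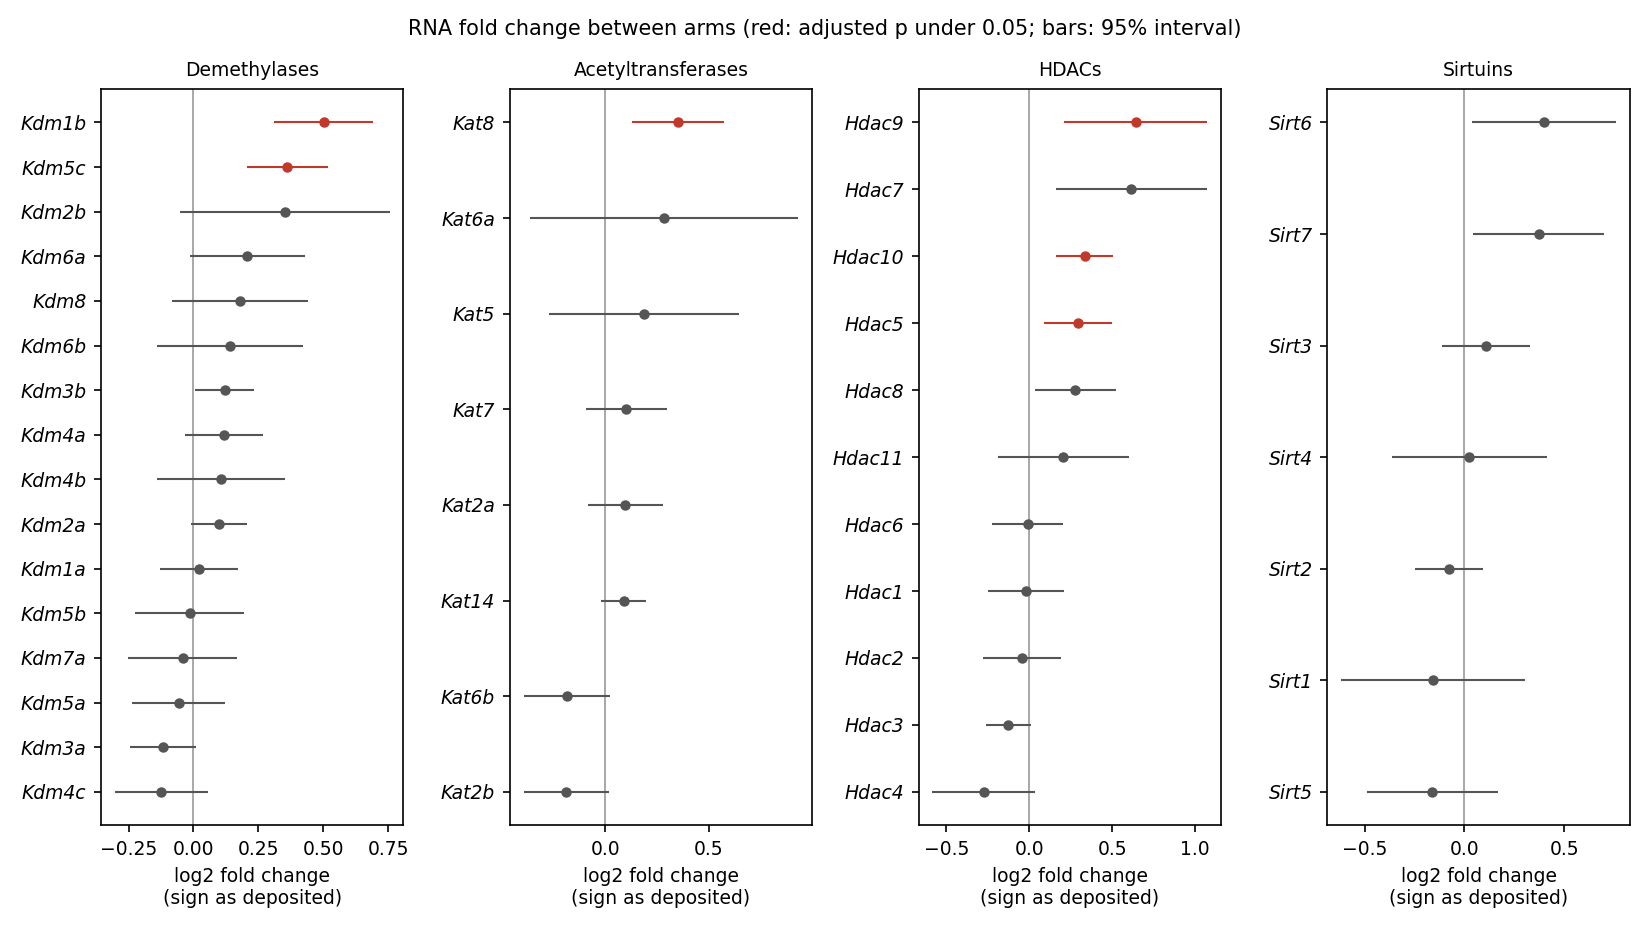
RNA log2 fold change (horizontal axis, sign as deposited) of tested demethylases, acetyltransferases, histone deacetylases and sirtuins, with 95% intervals from the deposited SE. Red points had an adjusted p under 0.05, all 6 of them positive and led by Hdac9 at 0.64.

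Partners of these enzymes in the same complexes were called about as often as abundant genes in general. Of the 109 tested genes in these lists, at any mean count, 17 passed with a positive and 1 with a negative sign (16.5%). Their median was 0.11, in the authors' deposited table. Of all tested genes 12.2% passed, and of those with a mean of at least 1000, 15.5%, in the authors' deposited table. Of 17 SWI/SNF partners, 2 passed (11.8%), Bcl7a with 1.11 ± 0.23 and Bicra with 0.56 ± 0.10, in the authors' deposited table. In the list of ISWI, INO80 and related remodeller genes, 5 of 15 passed (33.3%). Among them were Cecr2 with 1.13 ± 0.30, Srcap with 0.33 ± 0.10 and the ATPase Ruvbl2 with 0.25 ± 0.07, in the authors' deposited table. Mta2 of NuRD and Tbl1xr1 of NCoR passed with 0.20 ± 0.07 and 0.18 ± 0.06, of 20 corepressor subunits (10%), in the authors' deposited table. Menin (Men1), which tethers Kmt2a, had 0.31 ± 0.10, the 1 call among 17 COMPASS, acetylation and bromodomain genes (5.88%), in the authors' deposited table. Of 21 Polycomb genes, 5 passed (23.8%), 4 of them positive, in the authors' deposited table. The positive calls were led by Cbx2 with 0.92 ± 0.16 and Cbx6 with 0.48 ± 0.11, and Bmi1 passed at -0.42 ± 0.12, in the authors' deposited table. Dot1l, the H3K79 methyltransferase, and the demethylases Phf2 and Phf8 had 0.27 ± 0.05, 0.23 ± 0.06 and 0.22 ± 0.07 in the authors' deposited table. They were the 3 calls of 19 other histone enzymes (15.8%).

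The B cell, erythroid (median 0.42) and proliferation markers had mostly the same sign as most called members, and their part in the member values was not tested.

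Transcripts of these genes often carried m6A peaks. A peak is a stretch of exons where IP reads exceeded input, and the authors' deposited peak table gives its fold enrichment over input. Of 95 members, 70 (73.7%) had at least 1 peak in the authors' deposited table, against 35.9% of all 19049 genes with a mean above 0. Among genes at 1000 counts or more the shares were 62 of 76 members (81.6%) and 65.7% in the authors' deposited table. Members with a peak had a median mean count of 5395 and those without one 1128 in the authors' deposited table. The 70 genes held 230 peaks, and 19 of them (27.1%) had 5 or more, against 5.2% of all genes with a peak, in the authors' deposited table.

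Genes of the CHD and KMT2 families held the most peaks. Chd7, a remodeller of enhancers mutated in CHARGE syndrome in humans, and Kmt2c had 9 peaks each, and Chd9 and Kmt2a had 8 each, in the authors' deposited table. In Chd7 the enrichment of the 9 peaks lay between 1.39 and 2.87, and in Kmt2c between 1.69 and 2.73, in the authors' deposited table. Peak numbers were not set against transcript length, which the files do not give.

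Peaks were unevenly spread over the roles. All 6 other ARID genes had a peak, as did 17 of 18 methyltransferases, 13 of 14 ISWI, CHD and related remodellers, 15 of 18 demethylases, 8 of 12 SWI/SNF genes and 5 of 8 acetyltransferases, in the authors' deposited table. Of 11 histone deacetylases 4 had one (36.4%), and of 7 sirtuins 2 had one (28.6%), in the authors' deposited table. Their lowest means were 427 and 150 counts, and of all genes with a mean of at least 100, 52.3% had a peak. Both shares were thus below that of genes above this count. Of the 4 SWI/SNF genes without a peak, 3 were the alternative subunits Smarcd1, Smarcd2 and Smarcd3, and the last was Smarcb1, in the authors' deposited table. The class IIa enzymes Hdac4, Hdac5 and Hdac7, with means from 2144 to 5723 counts, had none in the authors' deposited table. Histone deacetylases reached a mean of 6826 counts at most and sirtuins 3453 in the authors' deposited table, below the highest of every other role.

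The median enrichment of member peaks was 1.94 (quartiles 1.65 and 2.35), against 1.82 over all 13083 peaks, in the authors' deposited table. Positions are as deposited, in a build the table does not name and with starts that may count from 0 or 1. The peaks of Smarca4, Smarca2, Kdm1b and Kdm5c lay downstream of their GRCm38.p6 promoter stretches, on the same chromosomes. Peaks are numbered from the 5′ end. The strongest peaks were the last of 6 in Kdm5a, at 3.97, one in Arid4a at 3.89 and one in Setd5 at 3.50 in the authors' deposited table. The Kdm5a peak (chromosome 6, 120430146 to 120439190) covered 749 exonic bases in 3 exon blocks, and that of Arid4a (chromosome 12, 71063118 to 71075689) 1645 bases in 6, the longest of any member, in the authors' deposited table. Member peaks covered a median of 200 exonic bases, against 151 over all peaks, in the authors' deposited table.

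**Figure D4:**
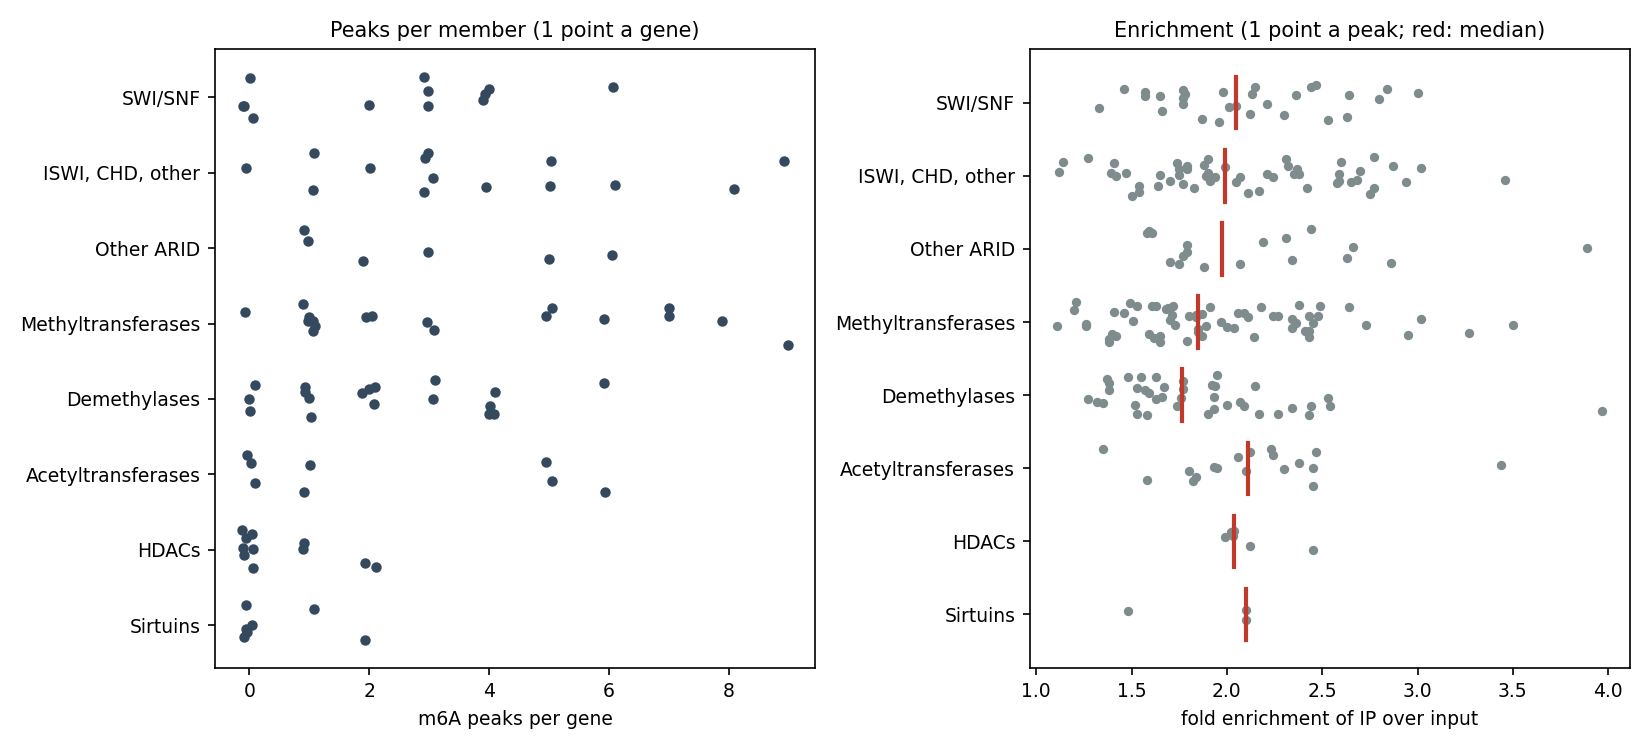
Left, number of m6A peaks per gene (horizontal axis) by role, 1 point a gene, spread slightly so that points do not hide each other; right, fold enrichment of IP over input by role, 1 point a peak, with the median as a red line. Histone deacetylases and sirtuins had 2 peaks at most, and Chd7 and Kmt2c had 9.

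No member peak passed an FDR of 0.05 for an m6A difference between the arms. A p under 0.05 is expected for 5% of peaks where none differ. Of 230 member peaks, 16 (6.96%) had a deposited difference p under 0.05, 11 positive and 5 negative, in the authors' deposited table. Over the whole table of peaks 4.92% had such a p, 3.6% positive and 1.32% negative, as the authors' deposited table gives them. Of 107 member peaks with an enrichment of at least 2, 6 had such a p, all positive, against 4.85% of all peaks that strong, 3.97% positive and 0.881% negative, in the authors' deposited table. At an FDR under 0.05 no member peak was left, of 3 in all (0.0229%), and the lowest FDR of a member was 0.315 in the authors' deposited table. No member had a second peak with p under 0.05, so the 16 peaks lay in 16 genes.

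The smallest p belonged to Arid4b (chromosome 13, 14186828 to 14187375), where the peak had a log2 difference of 0.28 (p = 7.6e-04) at an enrichment of 2.86 in the authors' deposited table. The first peak of Setd7 (chromosome 3, 51550321 to 51560575) had -0.51 (p = 0.0091) at an enrichment of 1.2 in the authors' deposited table. The first peak of Smarcad1, a remodeller of the DNA damage response (chromosome 6, 65072000 to 65073257), had 0.77 (p = 0.011) in the authors' deposited table. SWI/SNF genes held 5 of the 16, among 29 peaks (17.2%, against 4.92% of all peaks), in the authors' deposited table. Among peaks of genes with a mean of at least 1000 the share was 5.63%. The lowest FDR in this role, 1 of 8, was 0.731, and whether the shares differ beyond chance was not tested. Of these 5 peaks, those of Smarca2, Smarcc1 and Smarcc2 were positive, at 0.18, 0.25 and 0.19. For Arid1a and Arid2 the authors' deposited table lists -0.40 and -0.40. For the remodellers Chd4 and Chd1 the authors' deposited table lists 0.17 and 0.23. Of the methyltransferases, Setd2 and Kmt5b, which writes H4K20 methylation, were positive, with 0.16 and 0.43 in the authors' deposited table. Kat14, an acetyltransferase of the ATAC complex, had 0.19 in the authors' deposited table. The Kmt2c peak had p = 0.028 beside a difference of -0.08, the nearest to 0 of the 16, in the authors' deposited table. The single peak of Smarca1 had the largest difference of any member, 1.34, but p = 0.390, in the authors' deposited table.

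**Figure D5:**
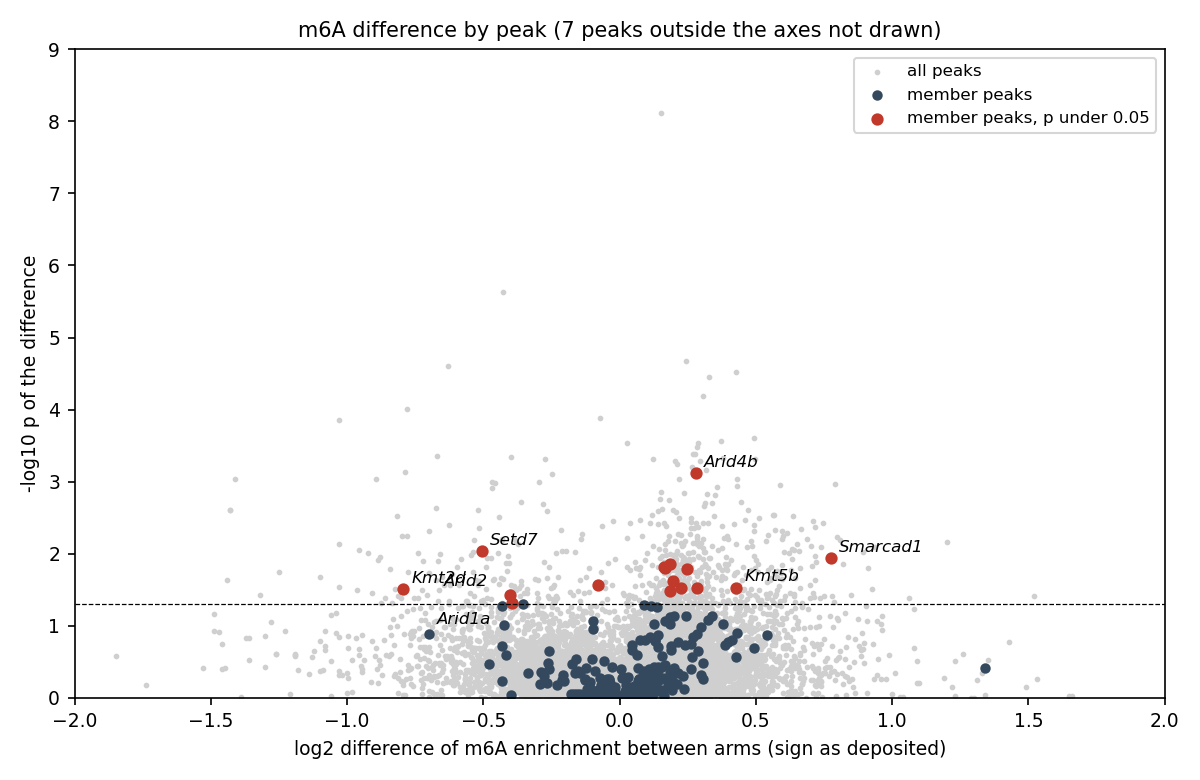
Log2 difference of m6A enrichment between the arms (horizontal axis, sign as deposited) against the negative log10 of its p, 1 point a peak with the calling threshold dashed. The 16 red member peaks lie among the grey points of all peaks, Arid4b at 0.28 highest, and 7 peaks outside the axes are not drawn.

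Of the 16 genes, 3 (18.8%) were also called in RNA in the authors' deposited tables, near the 15.1% of all tested members, and they are given as a description. Kmt2d had an m6A difference of -0.80 in the fourth of its 7 peaks (chromosome 15, 98845969 to 98846120, p = 0.031) beside an RNA fold change of 0.44 in the authors' deposited tables. Smarca2 had 0.18 in the last of its 4 peaks (chromosome 19, 26751155 to 26776186, p = 0.014) beside -0.31 in RNA in the authors' deposited tables. Kdm5c had 0.28 in the first of its 4 peaks (chromosome X, 152240137 to 152245133, p = 0.030) beside 0.36 in RNA in the authors' deposited tables. Since the numerator may differ between the tables, like and unlike signs say nothing of direction here. Smarca4, the member with the smallest RNA p, had 4 peaks with enrichments from 1.33 to 2.01 and differences from -0.05 to 0.14 in the authors' deposited table, none with p under 0.05.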

How the data were processed

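RNA and m6A were profiled in mouse bone, with 4 input and 4 IP libraries per arm. Libraries were grouped by title and made, per the labels' protocols, with a stranded kit whose molecular identifiers mark PCR copies. HISAT2, StringTie, DESeq and the rat build rn6 are named, with no version or role, in the submitters' processing notes, although the samples are mouse. The sources used here give no peak caller, no pooling of replicates and no strand setting of the counting. The depth of single libraries is unknown, so no count-based interval was made.

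For RNA the authors deposited, by header, the mean signal (counts over size factors), the log2 fold change with its SE, the Wald score and the raw and adjusted p-value. For peaks they list enrichment, a deposited ratio of IP to input, with the peak's p-value and the log10 of p and FDR, and the log2 difference of the arms with its own log10 p and FDR (a score as deposited). Peak starts and ends are as deposited, and the table does not say whether starts count from 0 or 1.

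No per-gene test was fitted here, because no value per library was at hand. Calls are the authors' adjusted p under 0.05, from a test across all genes, or a peak difference p under 0.05. Intervals are the fold change ± 1.96 SE. Recomputed Benjamini-Hochberg values, tested on simulated data, equalled the deposited ones over 15396 genes to within 2.6e-15. Mean counts set side by side between genes are not corrected for transcript length, since transcript lengths were not at hand. All 95 members were in the RefSeq table of GRCm38.p6, which gave the promoter stretches. Python 3.11.15, numpy 2.4.6, pandas 2.3.3, scipy 1.17.1 and matplotlib 3.10.9 were used.

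Members and lists were chosen with earlier results of these data known. Named are all called members and all with a called peak, members with the smallest p until each role has 2, the 2 with the highest mean per role, those with the most or strongest peaks and up to 3 called genes per partner list. Arid1a, Smarcd1, Smarcd2, Smarca5, Smarcb1, Kmt2b, Setd1a, Setdb2, Kdm1a, Kdm4d, Kdm5a, Kdm5b, Hdac4, Hdac7, Sirt1, Kdm3b and Uty were chosen after their values were seen. Setd9, in the list of methyltransferases, and Trac, a T cell marker, were not analysed here.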

Additional observations from a re-analysis of the deposited data

How the results depend on the processing

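No paired analysis was possible because the tables hold no value per library, and libraries could not be left out for the same reason. With an adjusted p under 0.01 the called members were 6 (6.45%, against 5.73% of all tested genes), with 5 positive and 1 negative, against 14, 12 and 2 as reported. Asking also for a log2 fold change of 0.5 or more in size gave 5, with 4 positive and 1 negative, and put the share of members, 5.38%, below that of all tested genes, 6.37%. Adjusting over every gene with a p left 13, without Hdac5, whose adjusted p from the authors' DESeq p-values came to 0.0544. An adjusted p under 0.1 gave 18, and adjusting over genes with a mean of at least 100, or leaving out the pseudogene, gave 14. The median fold change of members stayed between 0.096 and 0.101 over its alternatives. Member peaks called for an m6A difference were 16 as reported (6.96%, against 4.92% of all peaks). At p under 0.01 they were 2 (0.87%, below the 1.44% of all peaks), and at an FDR under 0.05 they were 0. Among peaks with an enrichment of at least 2 they were 6 (5.61%, against 4.85%). With peaks of at least that enrichment, 47 members had a peak. Taking the strongest of all peaks in each gene, the median enrichment was 2.24 in members, against 1.98 over all genes with a peak. The strongest of more peaks tends to be higher, and members with a peak held a median of 3, against 1 over all such genes. The 2 medians are thus not on equal terms. Low depth limits Kdm4d, Kdm5d and Chd5, whose mean counts were 7.62, 0.451 and 34.7.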

Other observations

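Of 93 tested members, 5 had an SE over 2 times the median of genes of like means, computed from the authors' deposited table. The share of all genes that far above was not computed. The other members lay lower, down to 0.413 times for Chd4. At a mean of at least 1000 the median SE was 0.106 over members and 0.117 over all genes. The 5 members with the larger SE are given next. Against the median SE of genes with a mean within 20% of their own, the SE was 9.44 times for Setdb2, 2.99 times for Kat6a, 2.81 times for Smarcd3, 2.57 times for Setd3, an actin histidine methyltransferase, and 2.35 times for Arid1a. Of the 866 genes near Setdb2, 0.346% had an SE as large. For Kat6a the share was 4.39% of 228 genes, for Smarcd3 4.09%, for Setd3 3.44% and for Arid1a 5.26%. Which libraries carry this spread was not visible in the tables.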
